A study of Rattus norvegicus with 6 samples.

Results

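Synaptic vesicle release machinery was followed as 38 listed genes: SNARE proteins, complexins, synaptotagmins, synapsins, vesicle proteins, active zone scaffolds and factors of vesicle retrieval. A gene was taken as a member where the gene name in the deposited count table was on the list, which gave 36 of 38 genes, out of 33455 genes in the table, and all 36 passed the filter on low counts that left 17066 genes for testing. Pclo and Nsf had no row under those names. The libraries came from wild type rats with a contusion of the spinal cord at the T9 segment, 3 of the Piezo Gel+US group and 3 of the Gel+US group, and each library is a piece of about 5 mm3 from the centre of the lesion. Rats of both groups carried an implanted gel and received ultrasound at 100 Hz and 1 W/cm2 for 10 min a day over 4 weeks; in Piezo Gel+US the gel was piezoelectric, meaning that strain in the material is turned into electrical charge. The labels give no age, sex or strain, and no uninjured cord and no injured cord without ultrasound is analysed here. The comparison asks which transcripts differed in the injured cord when the gel was piezoelectric.

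A nerve terminal releases transmitter when a vesicle fuses with its membrane. Vesicle synaptobrevin (Vamp) zips together with syntaxin and SNAP-25 of the plasma membrane into the SNARE complex, complexin holds that complex ready, and synaptotagmin senses the calcium that enters with the impulse. Synapsins keep a reserve of vesicles, the active zone scaffold places and primes them, and dynamin, amphiphysin and synaptojanin bring the membrane back. The mRNAs of these proteins sit mainly in neuronal cell bodies, and in the cord the motor neurons and fast interneurons are known for their use of Syt2 and Vamp1, beside the Syt1 and Vamp2 that dominate in the forebrain. In bulk tissue, fewer neurons and less RNA per neuron cannot be told apart.

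The promoters of 3 pairs of related genes are printed first, as their ratios are compared below. In Vamp1 and Vamp2, and in Cplx1 and Cplx2, the first gene varied widely between libraries and the second little. Syn1 and Syn2 had a ratio without overlap between the groups, as a share of 0.1 of ratios would with random labels. Each sequence is the 250 bases before the gene's start in the RefSeq annotation of the Norway rat assembly GRCr8, 5′ to 3′ on the gene's strand, with the motifs named below in capitals. Vamp1 lies at chr4:159698644-159698893 on the plus strand and Vamp2 at chr10:54292539-54292788 on the plus strand. Cplx1 lies at chr14:1328823-1329072 on the plus strand and Cplx2 at chr17:10236754-10237003 on the minus strand. Syn1 lies at chrX:3725495-3725744 and Syn2 at chr4:149858669-149858918, both on the plus strand.
Vamp1: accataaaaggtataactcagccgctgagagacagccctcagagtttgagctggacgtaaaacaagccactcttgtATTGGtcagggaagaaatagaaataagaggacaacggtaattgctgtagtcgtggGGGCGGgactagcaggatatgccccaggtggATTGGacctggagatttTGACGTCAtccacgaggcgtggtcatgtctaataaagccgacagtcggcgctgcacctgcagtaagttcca
Vamp2: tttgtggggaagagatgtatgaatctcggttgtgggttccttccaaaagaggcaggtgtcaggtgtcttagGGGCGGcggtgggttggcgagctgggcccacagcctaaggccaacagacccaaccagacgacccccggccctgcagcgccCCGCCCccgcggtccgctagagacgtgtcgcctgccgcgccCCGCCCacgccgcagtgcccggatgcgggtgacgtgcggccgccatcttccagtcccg
Cplx1: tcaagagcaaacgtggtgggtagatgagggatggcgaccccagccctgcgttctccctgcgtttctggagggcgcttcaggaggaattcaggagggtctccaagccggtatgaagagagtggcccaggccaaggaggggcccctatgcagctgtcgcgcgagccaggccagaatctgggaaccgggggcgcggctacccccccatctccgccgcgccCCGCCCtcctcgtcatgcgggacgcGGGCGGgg
Cplx2: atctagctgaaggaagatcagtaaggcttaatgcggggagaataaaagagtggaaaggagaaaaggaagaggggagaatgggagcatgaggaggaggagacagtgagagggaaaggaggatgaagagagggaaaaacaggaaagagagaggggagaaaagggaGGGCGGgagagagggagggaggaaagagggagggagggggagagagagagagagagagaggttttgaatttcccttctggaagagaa
Syn1: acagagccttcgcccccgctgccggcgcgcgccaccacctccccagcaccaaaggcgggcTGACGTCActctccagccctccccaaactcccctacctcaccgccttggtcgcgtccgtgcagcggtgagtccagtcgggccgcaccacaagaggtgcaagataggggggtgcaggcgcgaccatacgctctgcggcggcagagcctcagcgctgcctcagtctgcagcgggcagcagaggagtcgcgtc
Syn2: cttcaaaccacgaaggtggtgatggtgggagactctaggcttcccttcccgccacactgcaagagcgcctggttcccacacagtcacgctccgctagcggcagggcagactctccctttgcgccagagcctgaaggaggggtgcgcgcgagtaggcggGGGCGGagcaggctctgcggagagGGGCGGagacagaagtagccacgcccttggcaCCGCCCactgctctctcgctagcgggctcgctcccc

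A promoter was found in the RefSeq table for 27 of the 36 members. Their median GC content over the 250 bases was 64.4%, within a range of 45.2% to 80.8%, against a median of 51.2% over all 33469 promoters of the table. The GC box GGGCGG, searched on both strands as were all motifs, occurred in 17 of 27 member promoters (63.0%), against 30.5% of all promoters. The Vamp2 and Syn2 promoters held 3 GC boxes each, Cplx1 held 2, Vamp1 and Cplx2 held 1, and the Syn1 window held none. The cyclic AMP response element TGACGTCA occurred in Vamp1 and Syn1 (2 of 27, 7.41%, against 1.59% of all promoters). The CCAAT box, CCAAT, occurred in 9 of 27 (33.3%, against 34.0%), with 2 matches in Vamp1. The TATA box TATAAA occurred in 0 of 27, against 12.9% of all promoters. The first part, TTCAGCACC, of RE1, the element bound by the repressor REST, occurred in 0 of 27 (0.305% of all promoters), and its later part, GGACAGCGC, in Unc13a alone of the 27 (0.338% of all promoters). No motif holds the letters of another, although matches of 2 motifs can share bases, and each match describes these letters in this window. All promoters of the table served for comparison, whether or not the gene passed the count filter. Shares among genes expressed in these libraries were not counted, so the contrasts may not be particular to release genes.

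Library totals ran from 17212653 to 21436820 counts, and a member had between 41 counts (Syngr1 in Gel+US replicate 2) and 26811 counts (Snap25 in Gel+US replicate 3). All 15 neuron markers on the list passed the count filter, as did 6 of 7 Schwann cell markers and 6 of 7 astrocyte markers; Pmp2 and Gfap, the missing members of those lists, had no row under those names. Values below are CPM, each count relative to its library total after correction by trimmed mean of M-values (TMM) factors. A log2 fold change is Piezo Gel+US over Gel+US, with its 95% interval from the edgeR quasi-likelihood fit with group as the only term.

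The release genes lay lower in Piezo Gel+US in 35 of 36 cases, with a median log2 fold change of -0.36, but none passed the test. The median stayed below 0 when any 1 library was left out, from -0.62 to -0.11. Summed over the 36 genes, the level was 5375, 2969.7 and 5878 CPM in Piezo Gel+US replicates 1 to 3, against 6136, 3592 and 8779 CPM in Gel+US replicates 1 to 3. The groups overlapped: Gel+US replicate 3 stood highest, Piezo Gel+US replicate 2 lowest and Gel+US replicate 2 next to it. The group means were 4741 ± 1554.5 CPM in Piezo Gel+US and 6169 ± 2594 CPM in Gel+US (SD, n = 3 each).

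By the edgeR quasi-likelihood test 0 of 36 members were called at an adjusted p below 0.05, as were 0% of the 17066 genes tested, and the lowest adjusted p of a member was 0.994. An unadjusted p below 0.05 was reached by 0 members and by 359 genes; lower genes at that level made up 0.721% of those tested. DESeq2 called 0 genes, with 652 of 23195 genes (2.81%) and 1 of 36 members, Syt4, at an unadjusted p below 0.05. That share of the members was near the share of all genes. Over all genes tested the median log2 fold change was -0.021 and 52.9% lay below 0, so the members' median stood lower than that of the table. No member had groups that did not overlap, where 2.73% of all genes lay lower in Piezo Gel+US without overlap. In all 36 cases the 95% interval of the edgeR fit without a block held 0. Intervals of the fit with a block are not given. With the replicate number as a block, 8 of 36 members lay lower at an unadjusted p below 0.05, against 2.83% of all genes, and 0 were called.

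The same 2 libraries set most of the extremes. Gel+US replicate 3 was the highest of the 6 libraries for 24 of 36 members, against 24.4% of all genes, and Piezo Gel+US replicate 2 was the lowest for 28 of 36, against 28.4% of all genes. This was not particular to the members: of the 15 neuron markers, 12 were highest in the first library and 13 lowest in the second. In the fit without Piezo Gel+US replicate 2, 28 of 36 members were lower (55.7% of all genes; median -0.14), and without Gel+US replicate 3, 24 of 36 were lower (51.9% of all genes; median -0.11). With both left out, 25 of 36 members were higher in Piezo Gel+US (50.2% of all genes) and the median was 0.12; this setting was chosen after seeing the data, and since it drops the library that was highest in Gel+US and the one that was lowest in Piezo Gel+US for most members, it moves the values upward by its construction. With 1 library left out at a time, 18 of 36 members kept a log2 fold change below 0 in all 6 fits, against 24.9% of all genes. In pairs of equal replicate number, 17 of 36 members were lower in Piezo Gel+US in all 3 pairs, against 14.7% of all genes. Since most members shared their highest and lowest library, such counts over members are not counts of 36 independent observations.

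**Figure D1:**
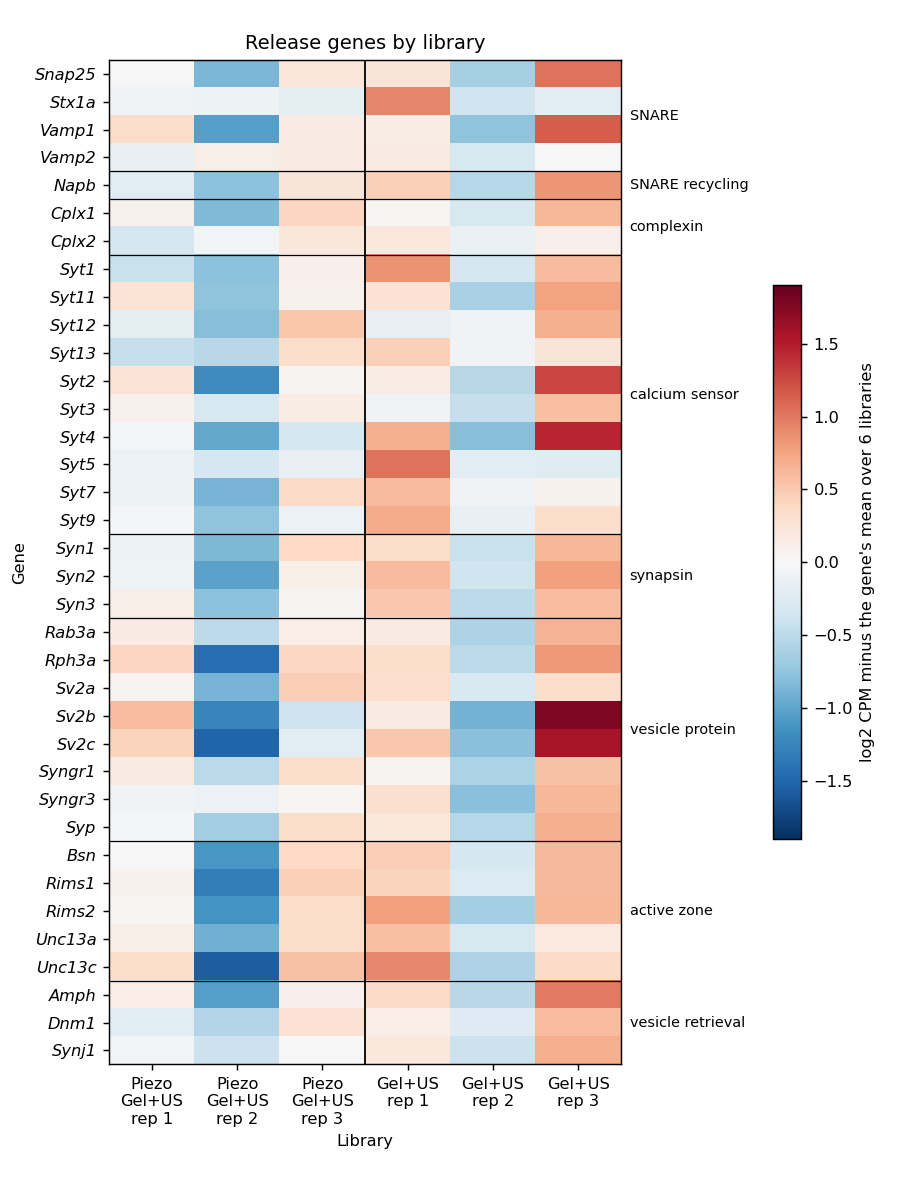
Level of each of the 36 release genes (rows, grouped by role) in each of the 6 libraries (columns, Piezo Gel+US left of Gel+US), as log2 CPM minus the gene's mean over the 6 libraries. Gel+US replicate 3 is the highest library for 24 genes and Piezo Gel+US replicate 2 the lowest for 28, while Vamp2 and Cplx2 are nearly even.

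The SNARE genes differed in their spread over the libraries. Snap25, the plasma membrane SNARE that also gives a common marker of neurons, measured 660.1, 360.0 and 777.8 CPM in Piezo Gel+US replicates 1 to 3, against 780.2, 426.1 and 1344 CPM in Gel+US replicates 1 to 3. Vamp1, the synaptobrevin of spinal and brainstem neurons, measured 759.8, 289.3 and 666.7 CPM in Piezo Gel+US, against 660.4, 351.9 and 1327 CPM in Gel+US. In both genes Gel+US replicate 3 was highest, replicate 2 of each group was low, and the groups overlapped. The log2 fold change was -0.50 for Snap25 (95% interval -1.65 to 0.64) and -0.45 for Vamp1 (95% interval -1.79 to 0.89); without Gel+US replicate 3 it was -0.011 for Snap25 and 0.18 for Vamp1.

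Vamp2, the other main synaptobrevin, was the single member with a log2 fold change above 0. It measured 132.9, 157.8 and 162.2 CPM in Piezo Gel+US replicates 1 to 3, against 164.8, 118.3 and 145.1 CPM in Gel+US replicates 1 to 3. All 6 libraries lay close together and the groups overlapped, with a log2 fold change of 0.081 (95% interval -0.37 to 0.54) that was -0.047 without Gel+US replicate 2. Stx1a, a plasma membrane syntaxin, measured 11.4, 11.2 and 10.6 CPM in Piezo Gel+US, against 22.9, 9.22 and 10.3 CPM in Gel+US. Gel+US replicate 1 alone stood apart in Stx1a; the log2 fold change was -0.35, and 0.18 without that library. Napb, the neuronal SNAP protein that helps take the SNARE complex apart, had a log2 fold change of -0.55 (95% interval -1.51 to 0.41).

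The complexins split in the same way. Cplx1, which clamps and promotes fusion in fast synapses, measured 437.1, 230.9 and 547.2 CPM in Piezo Gel+US replicates 1 to 3, against 419.5, 332.8 and 637.6 CPM in Gel+US replicates 1 to 3. Cplx2, its close relative, measured 80.0, 97.0 and 116.2 CPM in Piezo Gel+US, against 114.9, 92.3 and 107.4 CPM in Gel+US. Piezo Gel+US replicate 2 was the lowest library for Cplx1 and lay in the middle for Cplx2. The log2 fold changes were -0.19 (95% interval -1.12 to 0.74) for Cplx1 and -0.10 (95% interval -0.57 to 0.36) for Cplx2; leaving out Piezo Gel+US replicate 2 gave 0.079 for Cplx1, leaving out Gel+US replicate 3 gave 0.10, and Cplx2 had 0.0071 without Piezo Gel+US replicate 1.

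All 10 synaptotagmins had a log2 fold change below 0 (median -0.45, from -1.11 for Syt4 to -0.10 for Syt3), against 52.9% of all genes. They include the 3 members of lowest p in the fit without a block. Syt1, the fast calcium sensor of most forebrain synapses, had the lowest p of all members in that fit (unadjusted p = 0.0686 by edgeR, rank 581 among all genes tested). With the replicate number as a block the order differed: Syn2 had the lowest unadjusted p (0.00448 by edgeR), followed by Syt1 (0.0146) and Amph (0.0249), with an adjusted p of 0.855 for each. Syt1 measured 42.6, 33.3 and 60.9 CPM in Piezo Gel+US replicates 1 to 3, against 103.1, 45.2 and 86.8 CPM in Gel+US replicates 1 to 3. The 2 highest libraries were of Gel+US and the 2 lowest of Piezo Gel+US, with Gel+US replicate 2 below Piezo Gel+US replicate 3. Its log2 fold change was -0.78 (95% interval -1.64 to 0.079), within -1.07 to -0.53 with 1 library left out and -0.51 with both Gel+US replicate 3 and Piezo Gel+US replicate 2 left out.

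Syt4, a synaptotagmin of dense core vesicles and Golgi membranes that binds calcium weakly, had the largest fold change of the members. It measured 75.8, 39.9 and 62.5 CPM in Piezo Gel+US replicates 1 to 3, against 125.8, 44.7 and 213.3 CPM in Gel+US replicates 1 to 3. Gel+US replicates 1 and 3 stood above all Piezo Gel+US libraries and Gel+US replicate 2 among them, for a log2 fold change of -1.11 (95% interval -2.41 to 0.20). It stayed below 0 in the fits with 1 library left out, from -1.52 to -0.52, and was -0.30 with both Gel+US replicate 3 and Piezo Gel+US replicate 2 left out. Syt9, a further fast sensor, measured 6.67, 4.02 and 6.31 CPM in Piezo Gel+US, against 11.1, 6.16 and 8.62 CPM in Gel+US. Piezo Gel+US replicates 1 and 3 exceeded the lowest Gel+US library, so the groups overlapped, with a log2 fold change of -0.60 (95% interval -1.39 to 0.18).

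Syt2, the fast sensor of spinal cord and hindbrain synapses, followed Vamp1. It measured 104.5, 38.4 and 91.3 CPM in Piezo Gel+US replicates 1 to 3, against 97.0, 60.6 and 210.3 CPM in Gel+US replicates 1 to 3. Gel+US replicate 3 stood well above the rest, and the log2 fold change of -0.65 (95% interval -1.95 to 0.65) was -0.016 without it. Syt3, a plasma membrane synaptotagmin of high calcium affinity, measured 59.8, 45.7 and 62.1 CPM in Piezo Gel+US, against 53.8, 41.8 and 84.1 CPM in Gel+US. The groups overlapped in Syt3, and its log2 fold change of -0.10 was 0.22 without Gel+US replicate 3, or 0.016 if Piezo Gel+US replicate 2 was left out. Syt11, which does not bind calcium and is made by glia as well as neurons, was the synaptotagmin of highest level per length, at 153 ± 51.8 CPM per kilobase in Piezo Gel+US, against 193 ± 84.8 in Gel+US (SD, n = 3 each). Syt5, Syt7, Syt12 and Syt13 had log2 fold changes of -0.52, -0.36, -0.26 and -0.38; Syt5 had 0.028 without Gel+US replicate 1, and Syt11 (-0.33) and Syt12 had 0.021 and 0.049 without Gel+US replicate 3.

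The 3 synapsins, which tether vesicles to actin and to each other, were lower in Piezo Gel+US in all 3 pairs of equal replicate number. The share over all genes was 14.7%. Syn1 measured 138.1, 82.0 and 192.5 CPM in Piezo Gel+US replicates 1 to 3, against 188.4, 110.0 and 228.5 CPM in Gel+US replicates 1 to 3. Syn2 measured 63.3, 33.2 and 72.4 CPM in Piezo Gel+US, against 101.8, 51.9 and 115.5 CPM in Gel+US. For Syn2 Gel+US replicate 2 alone fell among the Piezo Gel+US libraries, whereas for Syn1 the groups mixed more widely. The log2 fold change was -0.35 for Syn1 (95% interval -1.28 to 0.57) and -0.67 for Syn2 (95% interval -1.61 to 0.27), and Syn3, the least abundant, had -0.43. With both Gel+US replicate 3 and Piezo Gel+US replicate 2 left out, Syn1 had 0.16 and Syn2 -0.17.

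The vesicle proteins ranged from even to steep. Syp, synaptophysin, the classic membrane marker of synaptic vesicles, measured 242.9, 156.6 and 311.8 CPM in Piezo Gel+US replicates 1 to 3, against 285.8, 170.8 and 401.2 CPM in Gel+US replicates 1 to 3. Rab3a, the small GTPase of vesicle docking, measured 121.6, 77.6 and 119.6 CPM in Piezo Gel+US, against 122.5, 73.3 and 171.2 CPM in Gel+US. Sv2a, a vesicle glycoprotein found at most synapses, measured 126.6, 66.5 and 168.0 CPM in Piezo Gel+US, against 152.5, 99.9 and 153.2 CPM in Gel+US. In these 3 genes replicate 2 was the lowest library of each group and the groups overlapped, with log2 fold changes of -0.27, -0.20 and -0.17. Without Gel+US replicate 3 Syp had 0.051 and Rab3a 0.11, and Sv2a had 0.12 without Piezo Gel+US replicate 2.

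The relatives of Sv2a were steeper. Sv2c, the paralogue of basal ganglia and motor neurons, measured 70.6, 18.3 and 46.0 CPM in Piezo Gel+US replicates 1 to 3, against 75.5, 30.4 and 156.7 CPM in Gel+US replicates 1 to 3. Sv2b measured 67.1, 18.7 and 33.9 CPM in Piezo Gel+US, against 50.4, 23.9 and 152.9 CPM in Gel+US. Gel+US replicate 3 was the highest library in both genes, and Piezo Gel+US replicate 2 the lowest. The log2 fold change was -0.96 for Sv2c (95% interval -2.58 to 0.66) and -0.92 for Sv2b (95% interval -2.69 to 0.85), and without Gel+US replicate 3 it was -0.24 for Sv2c and 0.10 for Sv2b. Motor neuron markers shared their highest library but not their lowest. The 6 markers summed to 489, 103 and 92.3 CPM in Piezo Gel+US, against 356, 55.5 and 1109.5 CPM in Gel+US. All 6 were highest in Gel+US replicate 3, against 24.4% of all genes. In Piezo Gel+US replicate 2, 1 of 6 was lowest, against 13 of the 15 neuron markers and 28.4% of all genes. The part of motor neurons, or of neurons in general, in the values of Sv2b and Sv2c was not tested. Rph3a, the Rab3a effector rabphilin, and Syngr3, a synaptogyrin, had log2 fold changes of -0.31 and -0.21; without Gel+US replicate 3 they had 0.030 and 0.095, and Rph3a had 0.080 without Piezo Gel+US replicate 2. Syngr1, a related vesicle protein, measured 3.90, 2.41 and 4.35 CPM in Piezo Gel+US, against 3.56, 2.28 and 5.06 CPM in Gel+US. It was the member with a log2 fold change closest to 0 (-0.033, 95% interval -1.03 to 0.96), and it had 0.17 without Piezo Gel+US replicate 2, or 0.28 if Gel+US replicate 3 was left out.

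All 5 measured active zone genes were lowest in Piezo Gel+US replicate 2, against 28.4% of all genes. Bsn, the giant scaffold bassoon, measured 70.5, 32.7 and 92.0 CPM in Piezo Gel+US replicates 1 to 3, against 97.9, 55.9 and 108.3 CPM in Gel+US replicates 1 to 3. Rims1, which ties vesicles to calcium channels, measured 25.6, 9.71 and 33.3 CPM in Piezo Gel+US, against 32.7, 20.3 and 37.1 CPM in Gel+US. Unc13a, the priming factor Munc13-1, measured 103.4, 50.7 and 120.9 CPM in Piezo Gel+US, against 142.2, 77.1 and 108.4 CPM in Gel+US. The other 2 Piezo Gel+US libraries lay inside the range of Gel+US in each gene. The log2 fold changes were -0.43 for Bsn, -0.39 for Rims1, -0.50 for its paralogue Rims2, -0.25 for Unc13a and -0.32 for Unc13c, a relative of Unc13a known from cerebellar synapses. Without Piezo Gel+US replicate 2 Rims1 had -0.034, Unc13a 0.034 and Unc13c 0.093, and Unc13c had 0.067 without Gel+US replicate 1.

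The retrieval genes were moderate in size. Dnm1, the neuronal dynamin that pinches off recycled vesicles, measured 329.0, 258.6 and 465.3 CPM in Piezo Gel+US replicates 1 to 3, against 412.9, 321.7 and 568.8 CPM in Gel+US replicates 1 to 3. Each Piezo Gel+US library lay below the Gel+US library of equal number, while the groups overlapped. The log2 fold change was -0.31 for Dnm1 (95% interval -1.06 to 0.44), -0.59 for amphiphysin, Amph, and -0.37 for synaptojanin, Synj1; with both Gel+US replicate 3 and Piezo Gel+US replicate 2 left out these were 0.12, 0.12 and 0.048.

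**Figure D2:**
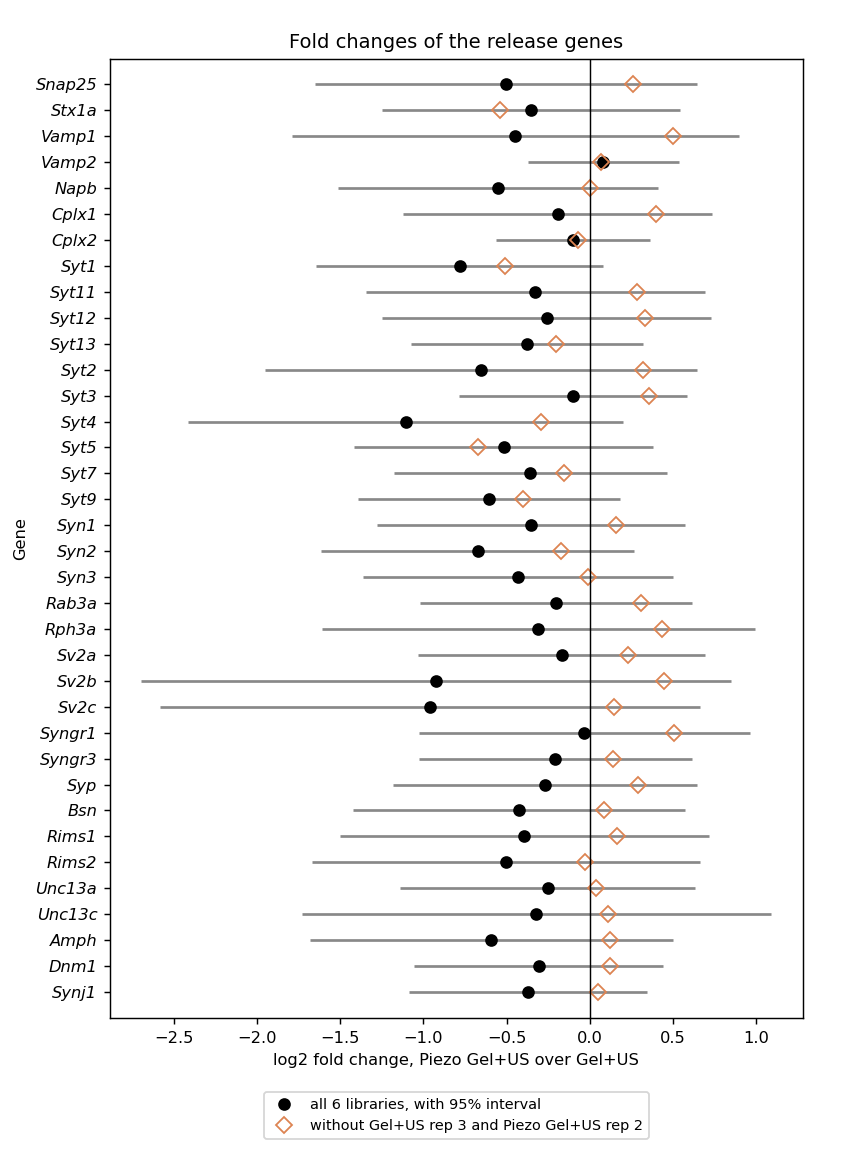
Log2 fold change (horizontal axis, Piezo Gel+US over Gel+US) of each release gene with its 95% interval from edgeR on all 6 libraries (black), and without Gel+US replicate 3 and Piezo Gel+US replicate 2 (open diamonds). The fit has group as its only term. All 36 of its intervals hold 0, and with the 2 libraries left out 25 of 36 values lie above 0.

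Per length, Snap25 stood highest, at 267 ± 96.0 CPM per kilobase of gene model in Piezo Gel+US, against 379 ± 206 in Gel+US. Vamp1 followed with 208 ± 90.6 in Piezo Gel+US, against 284 ± 181 in Gel+US, then Cplx1 with 185 ± 73.4 in Piezo Gel+US, against 212 ± 71.8 in Gel+US (SD, n = 3 each). These neighbours did not differ beyond their spread. Syt9, Syn3 and Syngr1 were lowest, at 2.51 ± 0.636, 2.61 ± 0.798 and 3.26 ± 0.928 CPM per kilobase in Piezo Gel+US, against 3.82 ± 1.09, 3.52 ± 1.27 and 3.34 ± 1.28 in Gel+US.

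Related genes with the same role were then compared as ratios of counts within a library, which do not depend on how libraries are scaled. Of 7 pairs, only Syn1 to Syn2 had no overlap between the groups. The ratio was 2.18, 2.47 and 2.66 in Piezo Gel+US replicates 1 to 3, against 1.85, 2.12 and 1.98 in Gel+US replicates 1 to 3, so Syn2 made up less of the 2 genes in each Piezo Gel+US library than in any Gel+US library. The log2 ratio averaged 1.28 ± 0.14 in Piezo Gel+US, against 0.98 ± 0.097 in Gel+US, a difference of 0.30 (exact two-sided permutation p = 0.1, n = 3 each; adjusted over the 7 pairs p = 0.7). The smallest p that 3 against 3 can give is 0.1, so no pair could pass at 0.05. Any ratio without overlap has that p, so with random labels a share of 0.1 of ratios would have no overlap. The 1 pair of 7 is near that share. With 1 library left out the difference lay between 0.23 and 0.37.

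The ratio of Vamp1 to Vamp2 varied most, over 2.32 on the log2 scale. It was 5.72, 1.83 and 4.11 in Piezo Gel+US replicates 1 to 3, against 4.01, 2.97 and 9.14 in Gel+US replicates 1 to 3. Replicate 2 was lowest in each group and Gel+US replicate 3 highest, and the difference of -0.45 (exact two-sided permutation p = 0.6, n = 3 each) was 0.021 without Piezo Gel+US replicate 2, or 0.022 if Gel+US replicate 3 was left out. Cplx1 to Cplx2 followed the same libraries, with 5.46, 2.38 and 4.71 in Piezo Gel+US, against 3.65, 3.61 and 5.94 in Gel+US; its difference of -0.12 was 0.25 without Piezo Gel+US replicate 2, or 0.12 if Gel+US replicate 3 was left out. Syt1 to Syt2, the forebrain sensor against the spinal one, was 0.408, 0.865 and 0.667 in Piezo Gel+US, against 1.06, 0.746 and 0.413 in Gel+US. Its lowest values were those of Piezo Gel+US replicate 1 and of Gel+US replicate 3, and its difference of -0.16 turned to 0.14 or 0.15 when replicate 1 of Piezo Gel+US or of Gel+US was left out. The difference was 0.46 for Sv2a to Sv2b (-0.14 without Gel+US replicate 3), -0.019 for Rims1 to Rims2 (0.068 or 0.17 when replicate 2 of Piezo Gel+US or of Gel+US was left out) and 0.15 for Unc13a to Unc13c (-0.14 without Piezo Gel+US replicate 2), with adjusted p of 0.933 or 1 for each pair other than the synapsins by the exact permutation test.

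**Figure D3:**
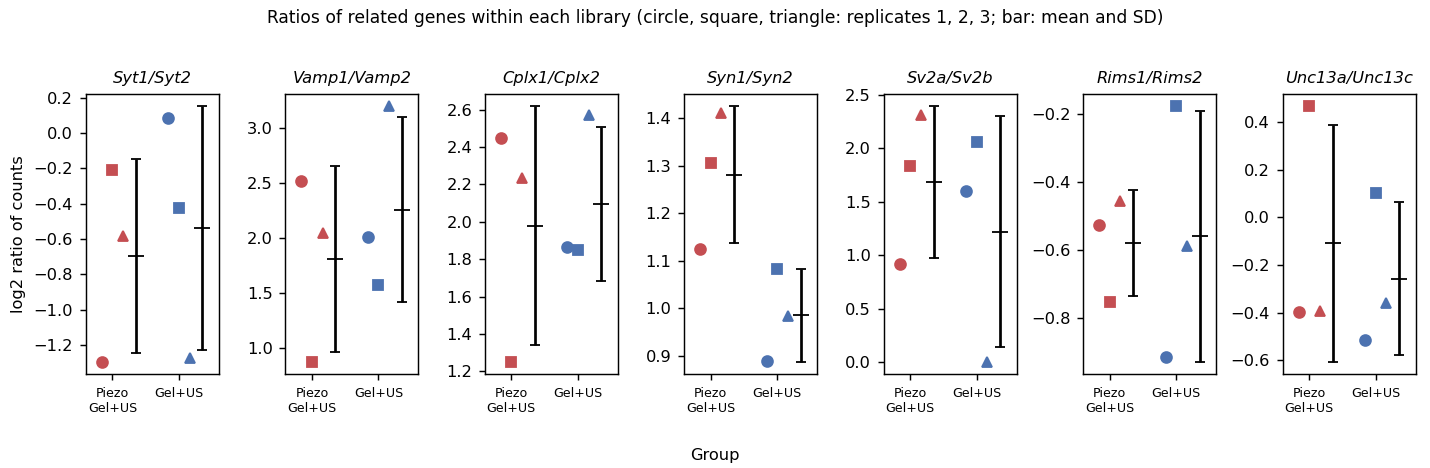
Log2 ratio of counts of 7 pairs of related genes (vertical axes, each with its own range) in each library of Piezo Gel+US (left) and Gel+US (right), with mean and SD of 3 libraries beside the points. Syn1/Syn2 is the only pair whose groups do not overlap, at 1.28 ± 0.14 in Piezo Gel+US, against 0.98 ± 0.097 in Gel+US. Such a pair has an exact two-sided permutation p of 0.1, the smallest possible. Vamp1/Vamp2 spans 2.32.

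Neuron markers were highest in Gel+US replicate 3 and lowest in replicate 2 of each group, as the summed release genes were. The summed level of the 15 markers, which include neurofilaments, Stmn2 and Rbfox3, was 10126, 2358 and 5210 CPM in Piezo Gel+US replicates 1 to 3, against 8615, 3127 and 19264 CPM in Gel+US replicates 1 to 3. All 15 had a log2 fold change below 0 (median -0.53), against 52.9% of all genes. Of the markers 0 were called, and Gap43 and Stmn2 had the lowest p, with log2 fold changes of -0.72 and -0.96. The mean log2 CPM of the 36 release genes minus that of the 15 markers was -1.92, -1.25 and -1.40 in Piezo Gel+US, against -1.63, -1.31 and -2.03 in Gel+US. That difference averaged -1.52 ± 0.35 in Piezo Gel+US, against -1.66 ± 0.36 in Gel+US, so the groups lay 0.13 apart, less than the spread within either, and -0.0018 apart without Piezo Gel+US replicate 2 or -0.052 without Gel+US replicate 3. The release genes were spread less than the markers: their mean log2 CPM had its lowest value, 5.32, in Piezo Gel+US replicate 2 and its highest, 6.75, in Gel+US replicate 3, and that of the markers 6.58 to 8.78 in the same libraries.

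Members differed in how closely they followed the neuron markers. After subtraction of the markers' mean log2 CPM, the SD over the 6 libraries was 0.16 for Amph, 0.16 for Vamp1 and 0.18 for Syt2, against 0.71, 0.80 and 0.82 before subtraction. For Vamp2, Cplx2, Syt5 and Stx1a the SD after subtraction was 0.80, 0.78, 0.80 and 0.81, against 0.19, 0.21, 0.51 and 0.47 before it. Vamp2 and Cplx2 thus stayed near a constant CPM while the neuron markers varied, and Stx1a and Syt5 were high in Gel+US replicate 1 and near even elsewhere. The 6 libraries of these values share their scaling and the same markers, and no test was made.

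**Figure D4:**
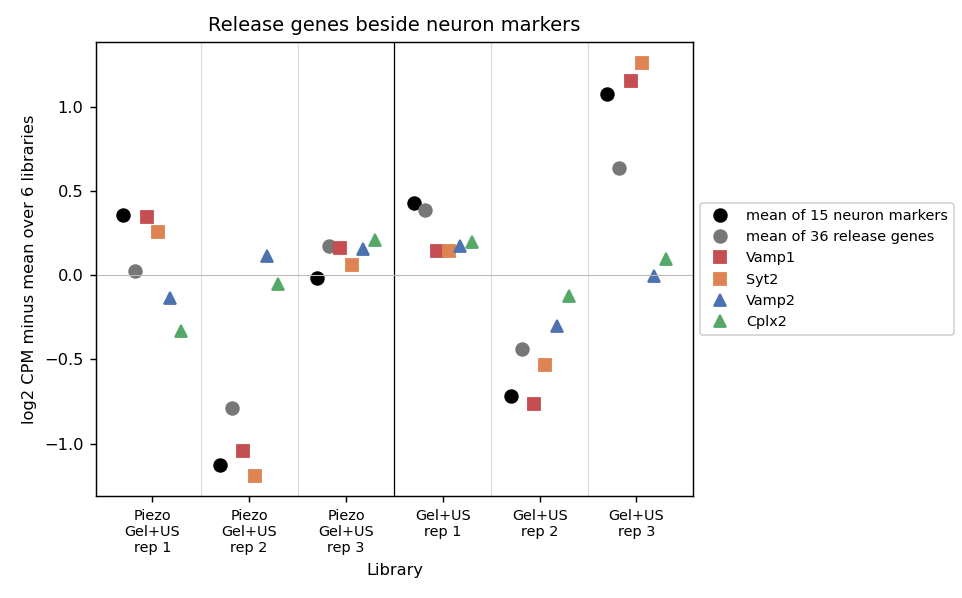
Mean log2 CPM of 15 neuron markers and of the 36 release genes, with 4 members, in each of the 6 libraries (Piezo Gel+US left of Gel+US), each minus its mean over the 6 libraries. Vamp1 and Syt2 follow the markers, with Piezo Gel+US replicate 2 at the bottom and Gel+US replicate 3 at the top, while Vamp2 and Cplx2 stay near 0.

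Markers of other cell types also varied between libraries, not all in the same ones. All 6 Schwann cell markers tested were highest in Piezo Gel+US replicate 2, and the share of all genes highest there was not counted. Their summed level was 7726, 71815 and 13603 CPM in Piezo Gel+US replicates 1 to 3, against 4879, 7492 and 7746 CPM in Gel+US replicates 1 to 3. Drp2 and Cldn19, proteins of peripheral myelin, had log2 fold changes of 1.56 and 2.14, and 0 of the 6 were called. Fibroblast markers summed to 1069.5, 5835 and 1303 CPM in Piezo Gel+US, against 835, 6611 and 671 CPM in Gel+US, high in replicate 2 of each group, where the release genes were low. Astrocyte markers were lowest in Piezo Gel+US replicate 2 for 5 of 6, against 28.4% of all genes. They summed to 743 to 2515 CPM in Piezo Gel+US and 1702 to 2757 CPM in Gel+US. Skeletal muscle markers reached 86.6 CPM in Piezo Gel+US replicate 2, and 3.06 to 19.3 CPM in the other 5 libraries. All 6 oligodendrocyte markers were lowest in Piezo Gel+US replicate 2 (28.4% of all genes), at a sum of 7316 to 19013 CPM in Piezo Gel+US, against 9667 to 18819 CPM in Gel+US. Microglia and macrophage markers summed to 63.8 to 186 CPM in Piezo Gel+US, against 115 to 208 CPM in Gel+US. Endothelial markers summed to 479 to 651 CPM in Piezo Gel+US, against 360 to 612 CPM in Gel+US. Ependymal markers summed to 11.4 to 24.8 CPM in Piezo Gel+US, against 20.4 to 46.4 CPM in Gel+US, and T cell markers to 3.42 to 17.3 CPM in Piezo Gel+US, against 1.40 to 35.2 CPM in Gel+US. No marker of any list was called by edgeR. The markers of lowest p had log2 fold changes of -1.70 for Isl1 and -1.68 for Chat (motor neuron), -0.63 for Slc1a3 and -0.58 for Aqp4 (astrocyte), -0.20 for Cldn11 and -0.19 for Mog (oligodendrocyte), -0.50 for P2ry12 and -0.43 for Cd68 (microglia and macrophage) and 1.06 for Dcn and 0.21 for Pdgfra (fibroblast). The like values were 0.60 for Kdr and 0.49 for Cldn5 (endothelial), -1.46 for Ak7 and -1.41 for Cfap43 (ependymal), 3.98 for Acta1 and 2.25 for Myh1 (skeletal muscle) and -1.07 for Cd3d and -0.68 for Cd3e (T cell). The part of tissue makeup in the release gene values was not tested.

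Of 60 other genes of the release pathway, 58 were in the table and 55 were tested. Of these, 44 had a log2 fold change below 0 and 11 above, against 52.9% of all genes below 0. Their median was -0.31, against -0.021 over all genes tested. By edgeR 0 were called and 1 had an unadjusted p below 0.05, against 2.10% of all genes tested, so that share was near the share of the table. That was Doc2b, a calcium sensor of spontaneous release, with 6.62, 6.54 and 7.50 CPM in Piezo Gel+US replicates 1 to 3, against 17.7, 8.89 and 9.12 CPM in Gel+US replicates 1 to 3. Its log2 fold change was -0.79 (95% interval -1.57 to -0.0089). Groups without overlap occurred in 4 of the 55 genes: Doc2b, Rab27b, Erc1 and Stx6, the last 3 named after their values were seen. The first 3 lay lower in Piezo Gel+US, as did 2.73% of all genes without overlap. Stx6 lay higher, and the share of all genes in that direction was not counted. Syt10, a synaptotagmin of growth factor secretion, and Erc2, an active zone scaffold, followed with log2 fold changes of -1.39 and -0.64. Of the 55 genes, 34 had their lowest value in Piezo Gel+US replicate 2, against 28.4% of all genes. In Gel+US replicate 3, 26 had their highest, against 24.4% of all genes.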

How the data were processed

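RNA was measured in 6 libraries, 3 of Piezo Gel+US and 3 of Gel+US, grouped by their treatment labels; columns were matched by library name. Per the labels' protocols, polyadenylated RNA was selected and strand was marked with dUTP. The authors deposited whole-number raw counts per gene. The submitters' processing notes name HISAT2 2.0.5, fastp 0.19.7, DESeq2 1.20.0 and featureCounts 1.5.0-p3; what each did, the genome build and whether strand was used in counting: not given in the sources used here. Gene model length, in bases, is another column of the deposited table. Of the members, 0 of 36 gene identifiers and 36 of 36 symbols occurred in the RefSeq table of GRCr8. Of the whole count table, 0 identifiers occurred there. The count table also places the genes of the printed promoters at other positions, with Vamp1, Cplx1, Cplx2, Syn1 and Syn2 on the opposite strand. The annotation behind the counts is thus not that of the printed promoters. A gene model that misses reads would lower a gene in all libraries.

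The groups were tested in edgeR 4.0.16 (R 4.3.3): TMM factors, filterByExpr (minimum count 10, minimum total 15), robust quasi-likelihood F test, group as the only term, Benjamini-Hochberg adjustment over 17066 genes and a threshold of 0.05. The common biological coefficient of variation was 0.382. In simulated counts at this design and 17066 genes, 92% of 100 genes changed 8-fold and 3% of 100 genes changed 2-fold were recovered. List means are of log2 CPM with a prior count of 2, and ratios of related genes used a prior count of 0.5 and an exact two-sided permutation test. Alternatives were RLE size factors, no low-count filter, DESeq2 1.42.0, the replicate number as a block, other prior counts and leaving out each library. p-values rest on the spread between libraries labelled as biological replicates.

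Each library's deviation from its group mean, over the genes tested, correlated at 0.253, 0.296 and 0.251 between libraries of equal number 1, 2 and 3. All exceed 0.1, which was taken to mark the numbers as pairs, although the labels do not say what a number shares. The main fit, its intervals and p ranks, and the permutation test of the ratios did not use the pairs. Of the tests, only the fit with the block did. One correlation between unequal numbers reached 0.198.

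All 36 members are named. Values in each library are given for 16 core members, the 5 of lowest p, the 3 of log2 fold change closest to 0 and any member opposite to the median; of the other release genes the 3 of lowest p, and of each marker list the 2 of lowest p, are named. A few results are not reported here. The members and lists were chosen with earlier results of these data known. Intervals are 95% confidence intervals of the log2 fold change between the groups, based on the spread between libraries.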

Additional observations from a re-analysis of the deposited data

How the results depend on the processing

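The count of members called was 0 under all settings run, and the count of genes called was 0 as well. The median log2 fold change of the members was -0.37 with RLE size factors, -0.36 with no low-count filter, -0.37 with DESeq2 and -0.40 with the replicate block. With the block, 8 of 36 members (Syn2, Syt1, Amph, Napb, Rims2, Bsn, Syt4 and Sv2c) had an unadjusted p below 0.05 and lay lower, against 2.83% of all genes, and the lowest adjusted p was 0.855 by edgeR. The block changed no call. Leaving out 1 library gave medians from -0.62 to -0.11, and leaving out both Gel+US replicate 3 and Piezo Gel+US replicate 2 gave 0.12. In that setting, chosen after seeing the data and moving values upward by its construction, these members turned to a log2 fold change above 0: Snap25 0.26, Syt2 0.32, Syt3 0.36, Syt11 0.28, Syt12 0.33, Syp 0.29, Syn1 0.16, Vamp1 0.50, Cplx1 0.40, Sv2a 0.23, Sv2b 0.45, Sv2c 0.14, Rab3a 0.31, Rims1 0.16, Unc13a 0.039, Unc13c 0.11, Bsn 0.086, Napb 7.0e-05, Dnm1 0.12, Amph 0.12, Synj1 0.048, Syngr1 0.50, Syngr3 0.14, Rph3a 0.44. With 1 library left out at a time, 18 members crossed 0, over these ranges of log2 fold change: Cplx1 -0.47 to 0.10, Cplx2 -0.24 to 0.0071, Rab3a -0.47 to 0.11, Rph3a -0.60 to 0.080, Stx1a -0.59 to 0.18, Sv2a -0.49 to 0.12, Sv2b -1.54 to 0.10, Syngr1 -0.29 to 0.28, Syngr3 -0.53 to 0.095, Syp -0.54 to 0.051, Syt11 -0.63 to 0.021, Syt12 -0.67 to 0.049, Syt3 -0.31 to 0.22, Syt5 -0.74 to 0.028, Unc13a -0.50 to 0.034, Unc13c -0.68 to 0.093, Vamp1 -0.80 to 0.18, Vamp2 -0.047 to 0.20. The differences in log2 ratio that crossed 0 ran over these ranges: Cplx1/Cplx2 -0.35 to 0.25, Rims1/Rims2 -0.20 to 0.17, Sv2a/Sv2b -0.14 to 0.88, Syt1/Syt2 -0.53 to 0.15, Unc13a/Unc13c -0.14 to 0.33, Vamp1/Vamp2 -0.80 to 0.022. The cause was not tested. The difference of the release genes relative to the neuron markers ran from -0.052 to 0.33 and was 0.13 with a prior count of 0.5. The prior count of 5 moved no ratio across 0. The ratios were not fitted with the block. In simulated counts at this spread and depth, 3% of 100 genes changed 2-fold were recovered, so a change of that size in a single gene is mostly not detectable.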

Other observations

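Piccolo, the active zone scaffold related to bassoon, had no row under the symbol Pclo, but 4 rows of the deposited table are described as protein piccolo-like. These rows were picked by their description after the member list was matched, and whether they belong to 1 gene is not known from the table. Their summed counts were 1195, 669 and 1461 in Piezo Gel+US replicates 1 to 3, against 1790, 708 and 2314 in Gel+US replicates 1 to 3. In these sums of raw counts, not scaled to library size, the highest library was Gel+US replicate 3 and the lowest Piezo Gel+US replicate 2, as for bassoon. Single rows differed in their lowest library. Some were lowest in Gel+US replicate 2, at 99 and 46 counts, against 141 and 71 in Piezo Gel+US replicate 2. The others were lowest in Piezo Gel+US replicate 2, at 395 and 62 counts. The log2 fold changes of the 4 rows lay between -0.52 and -0.45, with adjusted p of 0.994 by edgeR.

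The vesicular transporters of acetylcholine, of GABA and glycine, and of glutamate, which fill vesicles and mark the transmitter, were singled out after their values were seen. Slc18a3, the transporter of acetylcholine, measured 110.3, 17.8 and 27.2 CPM in Piezo Gel+US replicates 1 to 3, against 92.3, 5.50 and 254.9 CPM in Gel+US replicates 1 to 3. Slc32a1, the transporter of GABA and glycine, measured 76.0, 47.1 and 128.7 CPM in Piezo Gel+US, against 107.6, 67.6 and 108.1 CPM in Gel+US. Slc17a6, a transporter of glutamate, measured 45.4, 45.7 and 78.4 CPM in Piezo Gel+US, against 100.1, 48.2 and 104.4 CPM in Gel+US, with a log2 fold change of -0.58 (95% interval -1.45 to 0.29). The cholinergic gene was spread far more widely between libraries than the other two, and in all 3 the groups overlapped.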
